A study of Mus musculus with 11 samples.

Results

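Imatinib was set against phosphate-buffered saline (PBS) in brain vessels taken 24 h after middle cerebral artery occlusion (MCAO), a stroke model that blocks a large artery of the forebrain. The comparison used 3 imatinib arrays and 3 PBS arrays, 6 of the 11 arrays of the series, and all differences are imatinib minus PBS. Both groups were adult male C57BL/6 mice, and both had MCAO. Mice of the imatinib group received imatinib and mice of the other group PBS, 3 times before MCAO and, being sampled at 24 h, a 4th time. RNA came from vascular fragments, pieces of vessel isolated from the hemisphere on the side of the occlusion, and 10 ng per sample was amplified and hybridised to Affymetrix arrays. Of the probe sets on the array, those with 1 gene symbol were kept, and for each symbol the probe set with the highest mean over the 11 arrays stood for the gene, which gave 30790 genes. The other 5 arrays, 2 of imatinib and 3 of PBS at 3 h after MCAO, entered the fit and serve below for comparison. Vessels of animals without a stroke were not analysed here. Whether each replicate was its own animal is not in the labels, so p-values here reflect the spread among these samples alone.

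Imatinib inhibits a small set of tyrosine kinases, among them ABL, KIT, the colony stimulating factor 1 receptor and both PDGF (platelet-derived growth factor) receptors. In the brain, PDGF-B from endothelial cells acts on PDGFR-beta of pericytes, and tissue plasminogen activator can cleave PDGF-CC into a ligand of PDGFR-alpha. The blood-brain barrier rests on endothelial tight junctions, on transporters and on Wnt and Norrin signals that keep the barrier programme of the endothelium. After a stroke this barrier loosens and monocytes and other leukocytes from the blood attach to the vessel wall and cross it.

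Values are log2 signals whose precision is limited by the small number of arrays. Array medians at 24 h were 5.172, 5.182 and 5.178 on the imatinib arrays, against 5.210, 5.221 and 5.203 on the PBS arrays. Lower quartiles were 3.845, 3.830 and 3.834 on the imatinib arrays, against 3.881, 3.879 and 3.871 on the PBS arrays. Upper quartiles were 7.043, 7.061 and 7.041 on the imatinib arrays, against 7.039, 7.031 and 7.025 on the PBS arrays. The signal distribution as a whole thus also separated the groups, lower at low signals and higher at high ones. The tissue label was checked against markers. All 20 endothelial, all 15 pericyte and all 13 smooth muscle markers were above the array median on all 6 arrays. The same held for 16 of 16 microglia and 16 of 17 monocyte markers, and for 15 of 16 astrocyte markers, against 6 of 20 neuron markers, 7 of 15 oligodendrocyte markers and 3 of 17 markers of T and NK cells. Between imatinib arrays Pearson's r across genes was 0.992 to 0.993, between PBS arrays it was 0.991, and between the groups it was 0.990 to 0.992. On the first principal component of the 6 arrays (24.8% of the variance) imatinib replicates 1 to 3 scored 15.5, 9.28 and 16.7, and PBS replicates 1 to 3 scored -6.75, -7.04 and -27.7. On this component PBS replicate 3 lay apart from the other PBS arrays. On the second component (21.5%) PBS replicates 1 and 2 were the extremes, at 29.2 and -19.1, against -4.23 for PBS replicate 3. It was therefore not the odd array on every measure. List medians or gene differences that moved by over 1.5 times or turned in sign without PBS replicate 3 are given with and without it.

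No single gene passed in limma at a Benjamini-Hochberg adjusted p of 0.05, which is 0.0% of 30790 genes, and the smallest adjusted p was 0.205. At an unadjusted p under 0.05, 841 genes were higher (2.73%) and 1038 lower (3.37%) in imatinib vessels. All 3 imatinib arrays lay above all 3 PBS arrays in 1949 genes (6.33%) and below them in 2053 genes (6.67%). Over all genes 47.1% of differences were above 0 and 52.9% below it, with a median of -0.01. These splits moved with the scaling: with each array centred on its median, 1372 genes were higher and 628 lower at an unadjusted p under 0.05, 57.3% of differences were above 0 and their median was 0.03, and the groups did not overlap in 10.4% of genes on the higher and 4.12% on the lower side. Quantile normalisation gave 848 higher and 834 lower. With single arrays left out, 10.2% to 11.6% of genes did not overlap on the higher side and 11.6% to 13.1% on the lower. Counts of list genes without overlap therefore also grow when an array is dropped, and each is to be read beside the share for its setting. Of the 17057 genes with a mean of at least 5 in a group, 8903 differences were above 0 and 8154 below it. Of these 17057, 1544 did not overlap on the higher side, a larger share than among all genes, and 1152 on the lower. Most genes of the vessel wall lists had such a mean, so these 17057 genes are their closer comparison. Since no gene passed, the values below describe these 6 arrays, list by list, beside the shares of all 30790 genes.

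**Figure D1:**
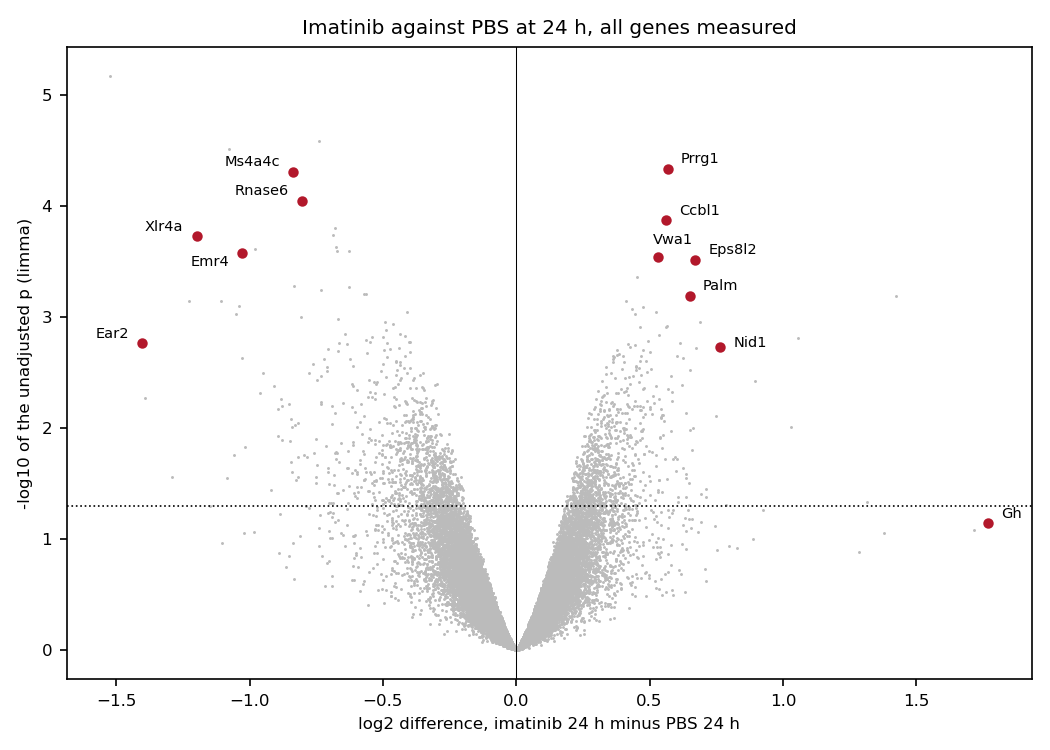
Log2 difference between imatinib and PBS vessels at 24 h (x axis) against the -log10 of the unadjusted limma p (y axis) for 30790 genes, 1 point a gene. The dotted line marks an unadjusted p of 0.05, and 12 genes named in the text are in red, with Ms4a4c and Rnase6 on the lower side and Prrg1 and Ccbl1 on the higher side.

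Several of the 10 genes with the smallest p on the lower side are known from myeloid cells. Ms4a4c, a membrane protein gene of the MS4A family that serves as a monocyte marker, had signals of 6.44, 6.70 and 6.59 in imatinib vessels, against 7.33, 7.33 and 7.57 in PBS vessels. Every imatinib array was below every PBS array, with a difference of -0.84 (95% interval -1.13 to -0.55), 1.78-fold lower, and a limma adjusted p of 0.302. Rnase6, a secreted antimicrobial ribonuclease of macrophages, had 6.12, 6.25 and 6.36 in imatinib vessels, against 6.81, 7.05 and 7.28 in PBS vessels, a difference of -0.80 (-1.10 to -0.51). Its groups did not overlap either. Cytip, a cytohesin-binding protein of haematopoietic cells that weakens integrin adhesion, showed 6.04, 6.12 and 6.06 in imatinib vessels, against 6.48, 6.74 and 7.01 in PBS vessels. The imatinib arrays lay close together below the PBS arrays, and the difference was -0.67. Cd300ld, a myeloid immunoglobulin-like receptor gene, had a difference of -0.73. Emr4, an adhesion G protein-coupled receptor of macrophages, had one of -1.03, and Kmo, kynurenine monooxygenase, one of -0.63. Ocstamp, a gene of osteoclast and macrophage fusion, had a difference of -0.68, and Runx2, the transcription factor of osteoblasts, one of -0.83. Xlr4a, an X-linked gene, had differences of -1.20 and -0.67 on its 2 probe sets, and Traj39, a joining segment of the T cell receptor alpha locus, had one of -0.57. Each of these 10 genes had groups that did not overlap, which was part of the rule that named them.

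The promoters of the first 4 of these 10 genes are shown because the genes were lower together in imatinib vessels, and 8 of the 10 matched the RefSeq table of GRCm38.p6 (250 bases before to 50 after the start). The capitals mark GAGGAA or its reverse complement TTCCTC, the core letters bound by PU.1, a transcription factor of myeloid cells. The windows are chr19:11407411-11407710 (+) for Ms4a4c, chr14:51128814-51129113 (+) for Rnase6, the first of 3 entries of that gene, chrX:73082458-73082757 (-) for Xlr4a and chr2:58160073-58160372 (-) for Cytip.

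Ms4a4c: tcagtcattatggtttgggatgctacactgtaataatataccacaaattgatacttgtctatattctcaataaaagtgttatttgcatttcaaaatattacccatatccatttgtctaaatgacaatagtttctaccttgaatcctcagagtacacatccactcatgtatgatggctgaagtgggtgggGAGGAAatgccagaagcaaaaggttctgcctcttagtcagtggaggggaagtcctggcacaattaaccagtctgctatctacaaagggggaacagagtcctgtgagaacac

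Rnase6: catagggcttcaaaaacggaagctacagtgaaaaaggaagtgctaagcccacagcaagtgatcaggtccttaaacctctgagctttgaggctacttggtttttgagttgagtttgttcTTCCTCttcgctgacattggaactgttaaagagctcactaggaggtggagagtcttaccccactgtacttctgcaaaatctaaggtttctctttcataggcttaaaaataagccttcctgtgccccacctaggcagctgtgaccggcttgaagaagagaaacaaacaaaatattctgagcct

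Xlr4a: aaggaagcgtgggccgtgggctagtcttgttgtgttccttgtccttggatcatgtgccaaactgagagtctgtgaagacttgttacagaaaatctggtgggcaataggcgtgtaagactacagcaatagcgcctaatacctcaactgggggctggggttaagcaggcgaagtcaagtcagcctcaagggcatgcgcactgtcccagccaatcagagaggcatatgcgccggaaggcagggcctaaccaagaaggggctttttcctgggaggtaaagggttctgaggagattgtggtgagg

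Cytip: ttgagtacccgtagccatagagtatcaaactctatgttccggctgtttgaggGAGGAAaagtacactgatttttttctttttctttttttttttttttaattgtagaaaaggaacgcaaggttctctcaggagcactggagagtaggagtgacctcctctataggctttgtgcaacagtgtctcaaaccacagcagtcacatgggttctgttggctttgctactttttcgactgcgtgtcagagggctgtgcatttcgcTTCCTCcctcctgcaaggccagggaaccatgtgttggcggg

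The motif occurred on either strand in 6 of the 8 promoters of the lower genes and in 2 of the 9 matched promoters of the 10 genes with the smallest p on the higher side, against 28.3% of all 27025 promoters in the table. Ms4a4c and Rnase6 held it 1 time each, Cytip 2 times and Xlr4a 0 times. A match is a description of the letters only.

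Among the 10 largest differences on the lower side, Ear2, an eosinophil-associated ribonuclease also made by monocytes and macrophages, had 6.99, 7.15 and 7.63 in imatinib vessels, against 8.67, 8.40 and 8.90 in PBS vessels. The gap between the groups was wider than the range within either group, and the difference was -1.40 (-2.16 to -0.65), 2.64-fold lower. Retnlg, a resistin-like protein of neutrophils, differed by -1.29, with 4.89, 5.37 and 5.23 in imatinib vessels, against 6.26, 6.18 and 6.92 in PBS vessels. Ifitm6, an interferon-induced transmembrane protein gene of myeloid cells, had 6.53, 7.35 and 7.42 in imatinib vessels, against 7.97, 8.07 and 8.59 in PBS vessels, a difference of -1.11. The groups of both genes stood apart, which the naming rule required of all 10 genes. The paired receptors Sirpb1a (-1.05) and Sirpb1b (-1.04), the orphan receptor Gpr141 (-1.23), the NK cell receptor chain Klrd1 (-0.95) and the heparan sulphate-cleaving enzyme Hpse (-1.06, -0.42 on its other probe set and -0.70 without PBS replicate 3) completed the set with Emr4 and Xlr4a. Adjusted p-values in limma for the 18 genes of both sets lay between 0.302 and 0.815. At least 2-fold differences were seen in 26 genes (0.0844%), 8 higher (0.026%) and 18 lower (0.0585%), and 7 of the 18 and 4 of the 8 were predicted genes or small RNAs.

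Monocyte markers mostly lay below 0. Of 17 measured markers 14 were below 0 and 3 above it, and their median difference was -0.32, beside -0.01 over all genes. Only Ms4a4c and Plac8 had groups that did not overlap (2 of 17, beside 6.67% of all genes on that side). Plac8, a lysosomal protein gene of monocytes and granulocytes, had 7.06, 7.81 and 8.01 in imatinib vessels, against 8.33, 8.77 and 8.49 in PBS vessels, and Ccr2, the chemokine receptor that brings monocytes out of the bone marrow, had 8.03, 8.89 and 8.85 in imatinib vessels, against 8.87, 9.15 and 9.88 in PBS vessels. Plac8 separated the groups and Ccr2 did not, since imatinib replicate 2 lay just above PBS replicate 1. Arg1, arginase 1 of alternatively activated macrophages, differed by -0.75 (-1.36 to -0.13) and Clec4e, a C-type lectin receptor for damaged cells, by -0.74 (-1.69 to 0.21), both with overlap. Msr1, the macrophage scavenger receptor, differed by -0.17 (-0.64 to 0.29). These values were smaller without PBS replicate 3, at -0.42 for Ccr2, -0.39 for Arg1, -0.25 for Clec4e and -0.037 for Msr1, while Plac8 was at -0.93. The mean of the list was 8.002, 8.33 and 8.44 on the imatinib arrays, against 8.34, 8.61 and 9.05 on the PBS arrays, so that it overlapped. The list median was -0.14 when PBS replicate 3 was left out, with again 14 of 17 below 0. It was -0.81 without PBS replicate 1, where 10 of 17 did not overlap. With single arrays left out this count ranged from 2 to 10, beside 11.6% to 13.1% of all genes on the lower side. In RNA of a whole fragment, fewer cells of a type and less RNA per cell cannot be told apart.

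Other leukocyte lists showed differing patterns. Of the 16 microglia markers, 10 were below 0 and 6 above it with a median of -0.03, which was 0.01 when each array was centred on its median, and none separated the groups. The microglia median was likewise 0.01 without imatinib replicate 3 and without PBS replicate 3. Their list means were 9.94, 10.07 and 9.86 on imatinib arrays, against 9.93, 9.99 and 10.04 on PBS arrays. For neutrophils 16 of 20 were below 0 (median -0.10, and -0.19 without imatinib replicate 2), for border macrophages 7 of 13 (median -0.05, but 0.07 with 4 of 13 below 0 without PBS replicate 3) and for B cells 6 of 11 (5 to 8 with single arrays left out). For T and NK cells 14 of 17 were below 0 (median -0.08), but 10 of 17 without PBS replicate 2 or with each array centred on its median. Gzma, granzyme A of cytotoxic lymphocytes, had 3.44, 3.48 and 3.89 in imatinib vessels, against 4.19, 4.29 and 4.40 in PBS vessels, so its groups did not overlap, but all 6 signals lay below the array medians.

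Genes of antigen presentation were below 0 in 18 of 19 cases, with a median of -0.14. In 4 of 19 the groups did not overlap (2 with each array centred on its median, 8 without PBS replicate 3 and 9 without PBS replicate 1). Over all genes the lower share was 6.67%, and 11.6% to 13.1% with single arrays left out. The mean of this list was 8.01, 8.20 and 8.18 on the imatinib arrays, against 8.26, 8.45 and 8.42 on the PBS arrays, with no overlap. The largest differences were those of class II, which presents peptides from outside the cell to CD4 T cells. H2-Eb1, a class II beta chain, had 7.06, 7.69 and 7.62 in imatinib vessels, against 7.69, 8.32 and 8.89 in PBS vessels. The groups met almost at 7.69, and the difference was -0.85 (-1.43 to -0.26). H2-Aa differed by -0.83, H2-Ab1 by -0.80 and the invariant chain Cd74 by -0.53, with overlapping groups in each. The next in size was H2-DMb1 (-0.25), which loads class II with peptide, and H2-Q7, a class I gene, was the member above 0 (0.02, but -0.21 without PBS replicate 3). Leaving out PBS replicate 3 gave a median of -0.21, with 18 of 19 below 0, but -0.55 for H2-Eb1 and -0.32 for Cd74.

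Leukocyte integrins, the adhesion receptors with which blood cells hold to the vessel wall, were below 0 in 7 of 9 cases (median -0.15, and -0.26 without PBS replicate 2). Of the 9, 4 lower and 1 higher did not overlap, beside 6.67% and 6.33% of all genes. Itgax, the integrin alpha X chain of dendritic cells and macrophages, had 5.44, 5.84 and 5.87 in imatinib vessels, against 6.26, 6.22 and 7.29 in PBS vessels. All 3 imatinib arrays were lower, and the difference of -0.88 was -0.53 without PBS replicate 3. Itgal, the alpha chain of LFA-1, differed by -0.68 (-0.44 without PBS replicate 3) and Itgam, that of Mac-1, by -0.29 (-0.15 without it). Itgb1, the beta 1 chain found on most cells, differed by 0.17. Their endothelial partners Icam1 and Vcam1 were near 0, at 0.08 (-0.18 to 0.33) and 0.07 (-0.32 to 0.47, and -0.043 without PBS replicate 3). The whole list of endothelial adhesion molecules lay higher, with 14 of 17 above 0 and a median of 0.15 (0.11 to 0.26 with single arrays left out). In 3 of 17 the groups did not overlap, beside 6.33% of all genes on the higher side. The list mean was 8.81, 8.88 and 8.95 on imatinib arrays, against 8.73, 8.77 and 8.74 on PBS arrays. Of 27 chemokine and chemokine receptor genes 22 were below 0, with a median of -0.16, but without PBS replicate 3 only 14 were below 0 and the median was -0.02. Ccl22, a chemokine for regulatory T cells, differed by -0.88 (-0.53 without PBS replicate 3) and Ccl5, a chemokine for T cells and monocytes, by -0.63, whereas Cxcl5, a neutrophil chemokine, differed by 0.41. The groups of all 3 genes stood apart.

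**Figure D2:**
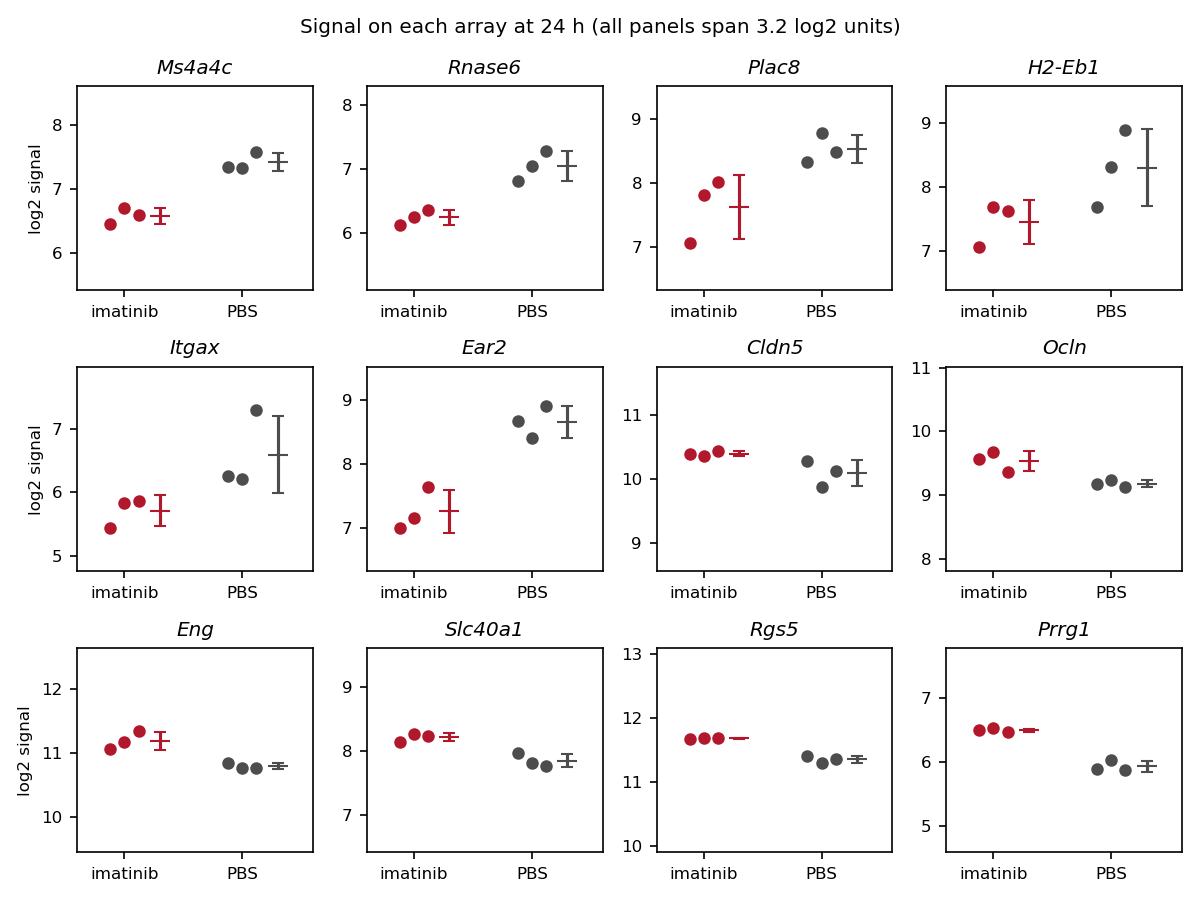
Log2 signal of 12 genes on each array at 24 h, imatinib in red and PBS in grey, with the mean and SD (n = 3 each) to the right of the points; each panel spans the same number of log2 units. In all 12 genes the 3 imatinib arrays lie on 1 side of the 3 PBS arrays, lower in the first 6 panels and higher in the last 6. Ms4a4c, Rnase6, Ear2 and Prrg1 were named by a rule that required this.

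The genes of the vessel wall lay mostly on the other side. All 20 endothelial markers had a difference above 0, beside 47.1% of all genes, with a median of 0.23. In 9 of 20 the groups did not overlap, beside 6.33% of all genes. All 20 had a mean of at least 5 in a group. Among all 17057 genes with such a mean, 8903 were above 0 and 1544 did not overlap on the higher side. Kdr, the VEGF receptor 2, had 10.34, 10.33 and 10.48 in imatinib vessels, against 10.20, 9.93 and 9.92 in PBS vessels. Cdh5, VE-cadherin of the endothelial adherens junction, had 11.64, 11.58 and 11.67 in imatinib vessels, against 11.44, 11.32 and 11.33 in PBS vessels, and Pecam1 differed by 0.24. All 3 separated the groups, with a 1.29-fold higher mean for Kdr and a 1.20-fold higher one for Cdh5. Ly6c1, a surface protein of brain endothelium, differed by 0.37 (0.05 to 0.69). The mean of the list was 10.46, 10.56 and 10.56 on the imatinib arrays, against 10.35, 10.37 and 10.15 on the PBS arrays. Without PBS replicate 3, 19 of 20 were above 0 and the median was 0.17. The monocyte list, given above, had its median on the other side, and its part in these endothelial values was not tested.

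Barrier transporters were above 0 in 22 of 22 cases, with a median of 0.21. In 9 of 22 the groups did not overlap, beside 6.33% of all genes on the higher side. All 22 had a mean of at least 5 in a group, and of all 17057 such genes 1544 did not overlap on that side. This count was 15 with each array centred on its median and 17 without imatinib replicate 1. The share of all genes also rises in these settings, to 10.2% to 11.6% with single arrays left out. Slc40a1, ferroportin, which exports iron, had 8.15, 8.27 and 8.24 in imatinib vessels, against 7.97, 7.81 and 7.78 in PBS vessels. Slc38a3, a glutamine carrier, had 9.79, 10.06 and 9.93 in imatinib vessels, against 9.34, 9.61 and 9.49 in PBS vessels. Both separated the groups, as did the thiamine transporter Slc19a3 (0.44) and the glucose transporter Slc2a1 (0.20). Abcb1a, the drug efflux pump P-glycoprotein, for which imatinib is itself a substrate, had 11.03, 11.23 and 11.14 in imatinib vessels, against 10.70, 11.04 and 10.74 in PBS vessels. PBS replicate 2 reached into the imatinib range there, and the difference was 0.31 (0.07 to 0.54). With PBS replicate 3 left out, 20 of 22 transporters were above 0 and the median was 0.17.

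Tight and adherens junction genes were above 0 in 20 of 25 cases, with a median of 0.24. Of the 25, 13 higher and 3 lower did not overlap (16 and 1 with each array centred on its median). Over all genes these shares were 6.33% and 6.67% before centring. Cldn5, the main claudin of the brain endothelium, had 10.39, 10.35 and 10.43 in imatinib vessels, against 10.28, 9.87 and 10.12 in PBS vessels. The 3 imatinib arrays lay close together above the PBS arrays, with a difference of 0.30 (0.04 to 0.57). Ocln, occludin, had 9.57, 9.67 and 9.37 in imatinib vessels, against 9.18, 9.23 and 9.13 in PBS vessels, and again no overlap. Lsr, angulin-1 of tricellular junctions, differed by 0.37, the junctional adhesion molecule Jam2 by 0.30 and the scaffold Tjp1 (ZO-1) by 0.17. The lower members were Cldn3 (-0.35), Cgn (-0.28), Cldn11 (-0.09), Tjp3 (-0.08) and Cdh2 (-0.08, but 0.12 as the mean of its probe sets). Leaving out any 1 of the 6 arrays left 20 of 25 above 0, and without PBS replicate 3 the median was 0.20. The list mean was 8.43, 8.40 and 8.45 on imatinib arrays, against 8.28, 8.30 and 8.22 on PBS arrays, without overlap.

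**Figure D3:**
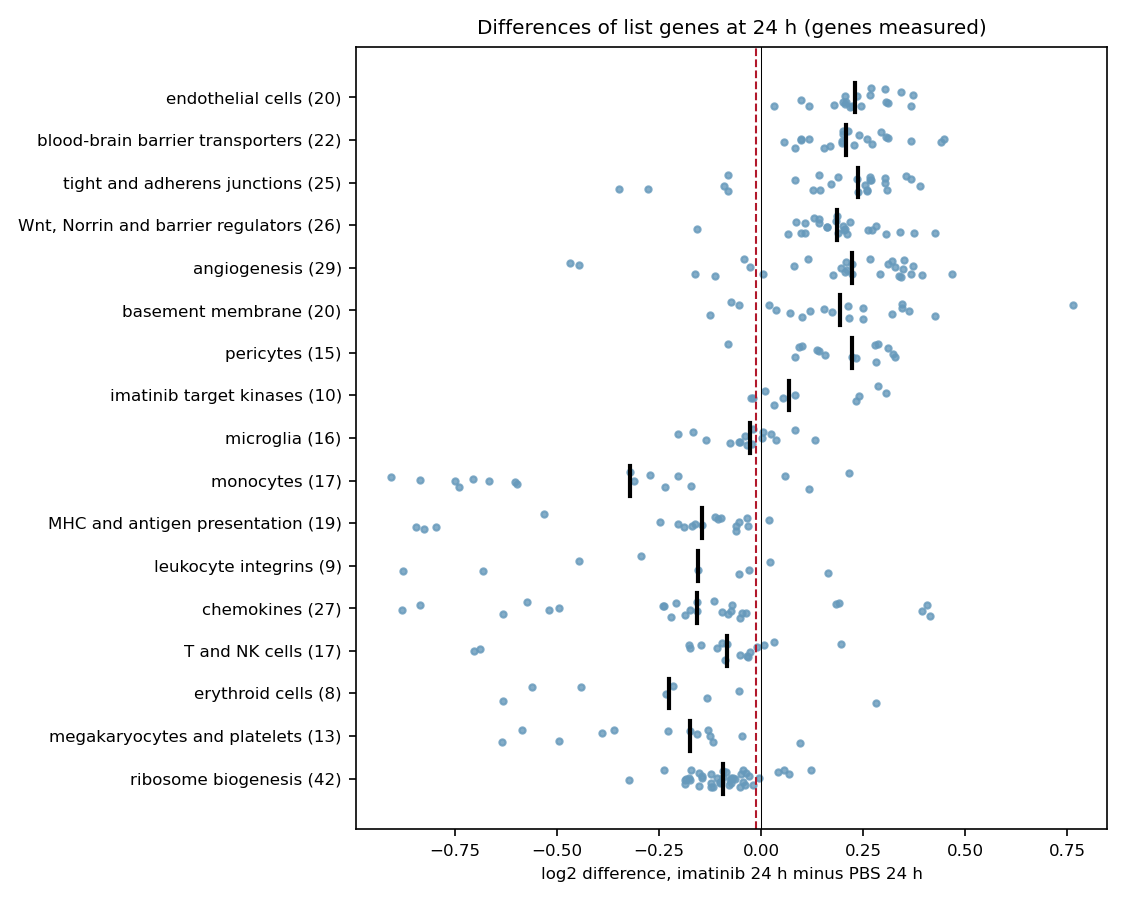
Log2 difference between imatinib and PBS vessels at 24 h for each gene of 17 lists (points; genes measured in brackets), with the list median as a black bar and the median of all genes, -0.01, as a dashed line. All points of the endothelial and transporter lists lie right of 0, and most points of the monocyte, antigen presentation and ribosome lists lie left of it.

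Regulators of barrier and vessel growth lay on the same side as the endothelial list. The vessel wall lists can share members, as Pecam1 is in both the junction and the adhesion list, so they are not separate results. Of 26 genes of Wnt and Norrin signalling and barrier regulation 25 were above 0 (median 0.19). In 10 of 26 the groups did not overlap, beside 6.33% of all genes on the higher side. Sox18, a transcription factor of endothelial differentiation, had 9.94, 9.83 and 9.99 in imatinib vessels, against 9.79, 9.41 and 9.43 in PBS vessels. Fzd4, the receptor for Norrin, had 9.43, 9.52 and 9.84 in imatinib vessels, against 9.09, 9.48 and 8.94 in PBS vessels. Sox18 separated the groups and Fzd4 did not, while Ndp, the Norrin gene itself, was the member below 0 (-0.16, -0.48 to 0.16). Angiogenesis genes were above 0 in 23 of 29 cases (median 0.22). Of the 29, 8 higher and 1 lower did not overlap, beside 6.33% and 6.67% of all genes. Hey1, a Notch target, differed by 0.47 and the VEGF receptor 3 gene Flt4 by 0.37. Cxcr4, the receptor of CXCL12 on leukocytes and sprouting endothelium, was the 1 lower gene without overlap (-0.45), and Vegfa differed by -0.47 (-0.24 without PBS replicate 3). The medians were 0.14 for Wnt and Norrin and 0.17 for angiogenesis when PBS replicate 3 was left out. TGF-beta genes were split, with 16 of 26 above 0 and a median of 0.06 (-0.0026 without imatinib replicate 1). Of the 26, however, 7 higher and 0 lower did not overlap, beside 6.33% and 6.67% of all genes. Eng, endoglin, an endothelial co-receptor for BMP9, had 11.06, 11.17 and 11.34 in imatinib vessels, against 10.85, 10.76 and 10.76 in PBS vessels. Its groups stood apart, as did those of its partner receptor Acvrl1 (0.32) and of the target gene Id3 (0.42).

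Mural cell and basement membrane lists also had medians above 0. Of 15 pericyte markers 14 were above 0 (median 0.22) and 5 did not overlap, beside 6.33% of all genes on the higher side. Rgs5, a regulator of G protein signalling and a pericyte marker, had 11.67, 11.68 and 11.69 in imatinib vessels, against 11.41, 11.30 and 11.36 in PBS vessels. The imatinib arrays lay close together, and the difference of 0.32 (0.10 to 0.55) was larger than the range of either group. Cspg4, the NG2 proteoglycan, differed by 0.33, and Anpep, aminopeptidase N, by -0.08 (0.065 without PBS replicate 3). Smooth muscle markers were above 0 in 9 of 13 cases (median 0.05). Without PBS replicate 3 they were so in 3 of 13 cases (-0.15), without PBS replicate 2 in 13 of 13 (0.29) and without imatinib replicate 1 in 6 of 13, and none separated the groups. Of 20 basement membrane genes 17 were above 0 (median 0.19, and 0.10 without PBS replicate 3). On the higher side 4 of 20 did not overlap, beside 6.33% of all genes. Nid1, nidogen 1, which links laminin to collagen IV, had 9.08, 9.08 and 9.31 in imatinib vessels, against 8.63, 8.07 and 8.47 in PBS vessels. Its difference was 0.76 on this probe set and 0.35 on the other. Lamb2, laminin beta 2, differed by 0.43 and Hspg2, perlecan, by 0.35, both without overlap.

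**Figure D4:**
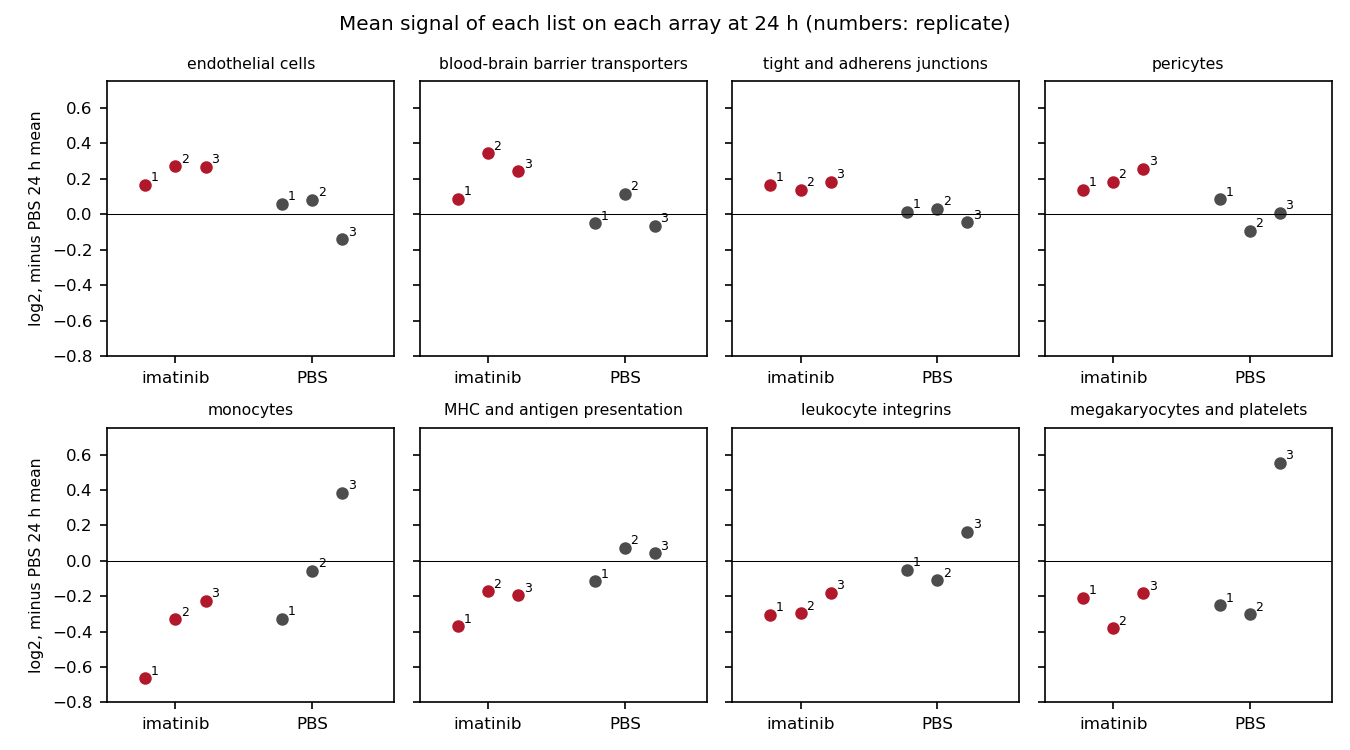
Mean log2 signal over the genes of 8 lists on each array at 24 h, minus the mean of the 3 PBS arrays, with imatinib in red, PBS in grey and the replicate number beside each point. Endothelial, junction and pericyte lists lie higher on all 3 imatinib arrays, and in the monocyte and platelet lists PBS replicate 3 lies far above the other PBS arrays.

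The targets of imatinib themselves differed little. Of 10 target kinase genes 8 were above 0 (median 0.07), and 3 did not overlap, beside 6.33% of all genes on the higher side. With each array centred on its median 10 of 10 were above 0. With single arrays left out the median was 0.09 to 0.19, the highest without imatinib replicate 2, and 0.12 without PBS replicate 3. Abl2 had 7.07, 7.24 and 7.21 in imatinib vessels, against 6.73, 6.96 and 6.90 in PBS vessels, a difference of 0.31 (0.07 to 0.54). Pdgfrb, the pericyte PDGF receptor, had 8.48, 8.66 and 8.72 in imatinib vessels, against 8.41, 8.16 and 8.43 in PBS vessels. The groups of both genes did not overlap, and the interval of Pdgfrb (0.29, -0.09 to 0.66) held 0. Pdgfra, the receptor of PDGF-AA and PDGF-CC, had 5.21, 5.20 and 5.06 in imatinib vessels, against 4.73, 4.82 and 5.22 in PBS vessels, with overlap (0.23, and 0.38 without PBS replicate 3). Kit had 8.77, 7.28 and 7.72 in imatinib vessels, against 8.22, 7.44 and 8.08 in PBS vessels, the widest spread among these receptors. Without PBS replicate 3, Kit was at 0.09, Ddr1 at 0.15, Abl1 at -0.039 and Csf1r at 0.028. The differences of Kit (0.01), Abl1 (-0.02) and Csf1r (-0.02) changed sign with the scaling or with 1 array left out. Those of the collagen receptors Ddr1 (0.05) and Ddr2 (0.08) did so with 1 array left out. Among the ligands, Pdgfd differed by 0.51 (0.11 to 0.91), Pdgfb by 0.21, Pdgfa by -0.11 and Pdgfc by -0.17. In Pdgfd, PBS replicate 2 (8.43) lay in the imatinib range of 8.31 to 8.52. Plat, tissue plasminogen activator, had 10.43, 9.26 and 9.70 in imatinib vessels, against 9.56, 9.14 and 9.70 in PBS vessels, and its difference of 0.33 (-0.21 to 0.87) came mainly from imatinib replicate 1. Over the whole list of PDGF axis and plasminogen activator genes, 9 of 14 were above 0. On the higher side 1 of 14 did not overlap, near the 6.33% of all genes. Mmp9, a matrix protease, differed by 0.11 (-0.43 to 0.65, and 0.22 without PBS replicate 3).

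The genes with the smallest p on the higher side were of varied function. Prrg1, a membrane protein with a Gla domain, had 6.50, 6.53 and 6.48 in imatinib vessels, against 5.89, 6.03 and 5.88 in PBS vessels. The spread within the imatinib group was small, and the difference was 0.57 (0.37 to 0.76), 1.48-fold higher, with a limma adjusted p of 0.302. Ccbl1, kynurenine aminotransferase 1, had 6.05, 5.86 and 6.01 in imatinib vessels, against 5.37, 5.49 and 5.37 in PBS vessels. Vwa1, a matrix protein that binds perlecan, had 8.02, 8.02 and 8.19 in imatinib vessels, against 7.69, 7.46 and 7.49 in PBS vessels. All 3 genes separated the groups by more than the range within either group of arrays. A lack of overlap was itself part of the rule that named the genes of both sets on the higher side. The others were Eps8l2 (0.67), an actin-capping protein gene, Palm (0.65), a membrane-bound phosphoprotein, Zfp810 (0.52), Tmeff1 (0.48), Rec114 (0.45), Arl2bp (0.43) and Vat1 (0.41). The 10 largest differences on the higher side held Gh, Nid1, Eps8l2 and Palm beside Eif2s3x (0.83), a subunit of translation initiation factor eIF2, Rasl11b (0.68), Cd5l (0.65), Vat1l (0.64), Ndc80 (0.64), a kinetochore gene, and Rhbdl2 (0.63). Cd5l, a secreted macrophage protein, had 4.91, 5.16 and 5.43 in imatinib vessels, against 4.69, 4.60 and 4.25 in PBS vessels. It was higher on every imatinib array, as the rule required, and so on the other side than most myeloid genes above. In Eif2s3x imatinib replicate 3 stood out at 6.64, and without that array the difference was 0.25. Gh, growth hormone, had the largest difference of all, 1.77, but this came from 1 array, with 4.48, 9.02 and 4.61 in imatinib vessels, against 4.30, 4.32 and 4.19 in PBS vessels. Prl, prolactin, was high on the same array (8.01, against 3.12 to 3.67 on the other 5), and both are hormones of the pituitary.

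Blood cell genes and ribosome biogenesis lay lower. Of 8 erythroid genes 7 were below 0 (median -0.22). Of the 8, 4 lower and 1 higher did not overlap, beside 6.67% and 6.33% of all genes. Hba-a2, an alpha globin, had 9.87, 9.84 and 10.21 in imatinib vessels, against 10.38, 10.57 and 10.87 in PBS vessels, and Hbb-b2, a beta globin, differed by -0.56. Both globins were lower on every imatinib array, while Bpgm, which makes the red cell metabolite that loosens oxygen from haemoglobin, differed by 0.28. Platelet genes were below 0 in 12 of 13 cases (median -0.17), but in 5 of 13 without PBS replicate 3 (0.06), and the list mean was 6.22, 6.05 and 6.24 on the imatinib arrays, against 6.18, 6.13 and 6.98 on the PBS arrays. PBS replicate 3 was the highest of the 6. Ppbp, a platelet chemokine, had 10.50 on that array, against 8.38 and 8.57 on the other PBS arrays. Ribosome biogenesis genes were below 0 in 38 of 42 cases with a small median of -0.09. In 4 of 42 the groups did not overlap, near the 6.67% of all genes on the lower side. Without PBS replicate 3, 31 of 42 were below 0, and without PBS replicate 2 the median was -0.16 and 21 of 42 did not overlap. With single arrays left out, 11.6% to 13.1% of all genes stood apart on the lower side. Wdr12, a factor of large subunit assembly, had 7.35, 7.30 and 7.49 in imatinib vessels, against 7.77, 7.60 and 7.73 in PBS vessels. Its difference was -0.32 (-0.56 to -0.09), with no overlap.

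The difference at 24 h was set against that at 3 h, when 2 imatinib and 3 PBS arrays were available. The interaction (24 h difference less the 3 h one) passed the threshold in 0.0% of genes (limma, smallest adjusted p 0.371). At an unadjusted p under 0.05, 716 genes were higher (2.33%) and 974 lower (3.16%). Vessels at 24 h had had more doses than those at 3 h, so time and the 4th dose cannot be told apart. Pericyte markers had a median of -0.30 at 3 h and 0.22 at 24 h, and target kinases -0.26 at 3 h and 0.07 at 24 h. Medians below 0 at 3 h were not particular to these lists. They were also seen for smooth muscle (-0.24), astrocyte (-0.22), oligodendrocyte (-0.15) and microglia markers (-0.14), while the erythroid median was 0.20. The 3 h medians were not recomputed with single arrays left out. Pdgfra differed by -0.83 at 3 h and 0.23 at 24 h (interaction 1.06), and Pdgfrb by -0.45 at 3 h and 0.29 at 24 h (0.74). Single genes were ranked by interaction p only among those whose 24 h groups did not overlap, so the 24 h values entered their choice. Among the genes with the smallest interaction p under this filter, Arnt2, a partner of bHLH-PAS factors, differed by -0.82 at 3 h and 0.31 at 24 h. Ano1, a calcium-activated chloride channel of contractile mural cells, differed by -0.43 at 3 h and 0.34 at 24 h. On the lower side, Hba-a2 differed by 0.71 at 3 h and -0.63 at 24 h, and Fgr, a SRC-family kinase of myeloid cells, by 0.63 at 3 h and -0.73 at 24 h. The medians of the endothelial list (0.07 at 3 h, 0.23 at 24 h), the transporters (0.09 at 3 h, 0.21 at 24 h) and the junctions (0.04 at 3 h, 0.24 at 24 h) were above 0 at both times. The monocyte median was -0.04 at 3 h and -0.32 at 24 h.

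**Figure D5:**
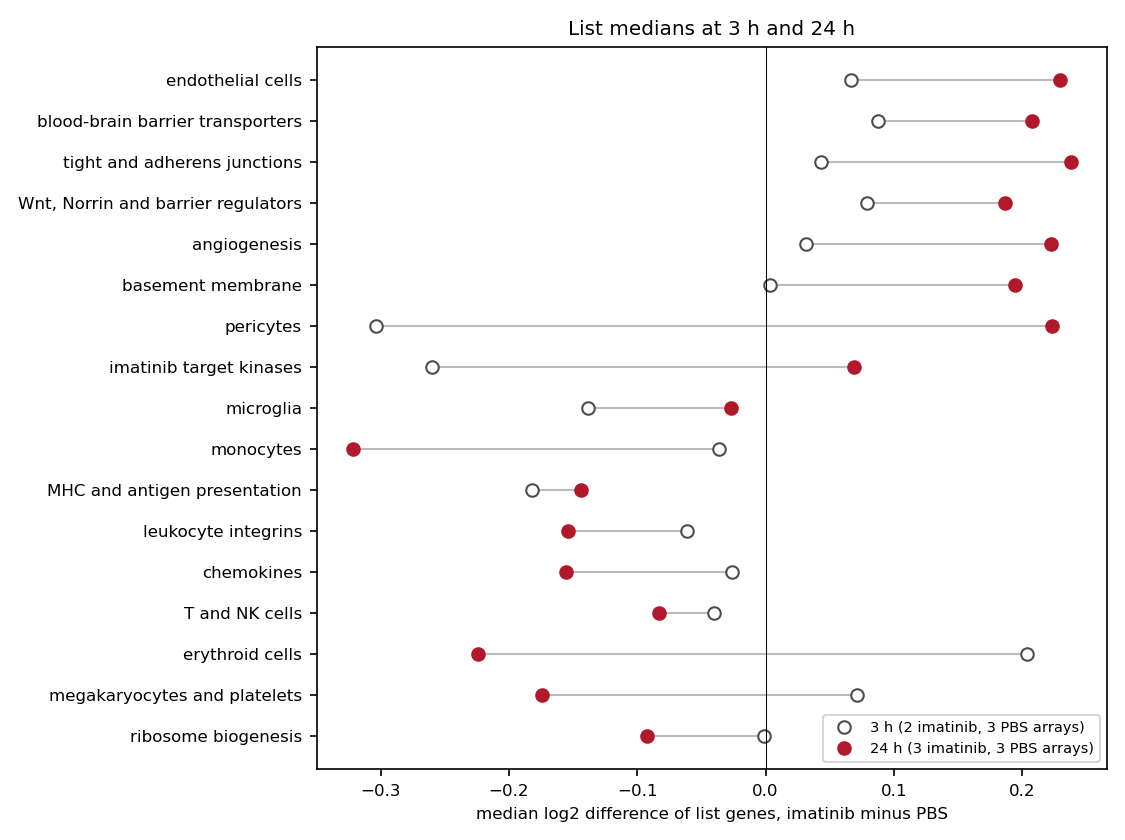
Median log2 difference between imatinib and PBS vessels for 17 lists at 3 h (open circles, 2 imatinib and 3 PBS arrays) and at 24 h (filled circles, 3 imatinib and 3 PBS arrays). The pericyte and target kinase medians lie left of 0 at 3 h and right of it at 24 h, and the erythroid median lies right of 0 at 3 h and left of it at 24 h.

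The same PBS vessels at 24 h can be set against PBS vessels at 3 h, a comparison that shares its 24 h arrays with the one above, so the values only stand side by side. The monocyte median was -0.32 for imatinib against PBS at 24 h and 2.01 for PBS at 24 h against 3 h. The transporter median was 0.21 for imatinib against PBS and -0.66 for 24 h against 3 h. The endothelial median was 0.23 for imatinib against PBS and -0.45 for 24 h against 3 h. For single genes, Ms4a4c had -0.84 for imatinib against PBS and 2.22 for 24 h against 3 h. Ocln had 0.36 and -0.67, and Rgs5 had 0.32 and -0.73, in the same order. Opposite signs were not seen throughout. In the same order, the median of cholesterol and fatty acid synthesis was 0.06 and 0.30, that of interstitial matrix 0.05 and 0.04, and Kdr had 0.37 and 0.07. With the 24 h PBS arrays on both sides, chance deviations of these arrays enter both values with opposite signs.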

How the data were processed

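RNA of brain vascular fragments was measured on 11 Affymetrix arrays, and the deposited values are log2 signals per probe set that the authors made with RMA in Affymetrix Expression Console, per the submitters' processing notes, which also name limma. The sources used here give no version, array type or genome build. The values were not normalised again. The deposited workbook and series matrix held the same values (largest gap 0).

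Of 33793 probe sets, 1591 without a symbol, 128 with several and 14 whose symbol had become a date were not used. Among 30790 genes, 730 had several probe sets. In limma 3.58.1 (R 4.3.3) the means of 4 groups were fitted on 11 arrays with empirical Bayes moderation and Benjamini-Hochberg adjustment at 0.05. The contrasts were imatinib minus PBS at 24 h, the same at 3 h, PBS at 24 h minus PBS at 3 h, and the interaction. On simulated data with 200 of 30790 genes changed, the comparison at 24 h recovered 28.9% of genes changed 1.5-fold, 82.2% of those changed 2-fold and 98.6% at 4-fold. Mean false calls per run were 2.9, 8.6 and 10.8. Noise was drawn independently for each gene and array, so shifts of many genes together on 1 array were not simulated, and recovery in real arrays may differ.

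The members and the 54 gene lists (1135 entries, 20 not measured) were chosen with earlier results of these data known. Named by rule were the 10 genes per direction with the smallest p and the 10 with the largest differences among genes with a mean of at least 5 in a group and no overlap, the smallest p of each list per direction, 8 interaction genes per direction, and the kinases, PDGF, junction and adhesion genes. The 8 interaction genes per direction had the smallest interaction p among genes with a mean of at least 5 in a group and no overlap at 24 h. Predicted genes, small RNAs and olfactory and vomeronasal receptors (12483) were tested but not named. H2-Aa, H2-Ab1, Cd74, Plac8, Ccr2, Arg1, Clec4e, Msr1, Itgal, Itgam, Ccl5, Kdr, Pecam1, Ly6c1, Slc38a3, Slc19a3, Slc2a1, Abcb1a, Jam2, Fzd4, Flt4, Vegfa, Id3, Cspg4, Hspg2, Ppbp, Prl, H2-DMb1, Cgn, Tjp3, Cdh2 and Gm9733 were named after their values were seen. Promoters are from RefSeq (GRCm38.p6). Alternatives were single arrays left out, scaling, filters, probe set rule, array weights, prior and replicate block. Counts of list genes without single arrays and with centred arrays were added after the data were seen.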

Additional observations from a re-analysis of the deposited data

Results flagged for a closer look

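In 3 lists the mean over the list's genes separated imatinib from PBS arrays in opposite directions at the 2 times, and the difference between the times was not tested for any of them. For the imatinib target kinases the mean of the list differed by 0.12 at 24 h, higher on all 3 imatinib arrays, and was lower on both imatinib arrays at 3 h. For the pericyte markers it differed by 0.19 at 24 h, with the opposite sign at 3 h. Pdgfrb is in both lists. At 3 h other list means were also lower on both imatinib arrays, among them oligodendrocytes (-0.23) and oligodendrocyte precursors (-0.20). For the erythroid genes it differed by -0.25 at 24 h and was higher on both imatinib arrays at 3 h.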

How the results depend on the processing

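The count of genes past the threshold at 24 h was 0 in limma under every alternative tried, except without PBS 24 h replicate 1, where 1 gene, Gm9733 (-1.30, adjusted p = 0.00443), passed, so that the range with single arrays left out was 0 to 1. The interaction count was 0 except without imatinib 3 h replicate 2, where 2 small or predicted RNAs, Mir290a and Gm23421, passed (range 0 to 2). Arrays of the same replicate number showed no strong shared shift (correlations of deviations 0.017, 0.038 and -0.010). With so few arrays this cannot exclude a pairing, and the labels do not give one. The fit with the replicate block also called 0 genes at 24 h and 0 in the interaction. Of 138 genes, 125 never changed sign under any alternative. With single arrays left out, Kit ranged from -0.41 to 0.33, Abl1 from -0.045 to 0.0102, Csf1r from -0.074 to 0.029, Ddr1 from -0.071 to 0.15, Ddr2 from -0.051 to 0.17, Mmp9 from -0.19 to 0.43, Icam1 from -0.027 to 0.17, Vcam1 from -0.043 to 0.25, Ndp from -0.31 to 0.013, H2-Q7 from -0.21 to 0.18, Anpep from -0.25 to 0.065 and Ppbp from -0.88 to 0.18. Kit was -0.023 with quantile normalisation and -0.041 with array weights, with centred arrays Abl1 was 0.015 and Csf1r 0.0196, and Cdh2 was 0.12 with the mean of its probe sets. The causes were not tested. Leaving out an array leaves fewer values that can overlap: over all genes 10.2% to 11.6% then stood apart on the higher side and 11.6% to 13.1% on the lower, and list counts without overlap grew to at most 17 of 26 for Wnt and Norrin, 15 of 29 for angiogenesis, 10 of 15 for pericytes and 9 of 20 for basement membrane. List medians kept their sign in 27 of 54 lists with single arrays left out and under both scalings.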

Other observations

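Choroid plexus and ependymal genes were above 0 in 11 of 12 cases with a median of 0.38. Only 1 higher and 1 lower of the 12 did not overlap, beside 6.33% and 6.67% of all genes. Otx2, a transcription factor of the choroid plexus, had 5.82, 5.77 and 5.98 in imatinib vessels, against 5.06, 5.61 and 5.27 in PBS vessels, a difference of 0.54 (95% interval -0.02 to 1.11). Ccdc153, a gene of ciliated ependymal cells, was the member below 0, with 5.87, 5.93 and 5.78 in imatinib vessels, against 6.37, 6.30 and 6.38 in PBS vessels. The list median was 0.12 without PBS replicate 1, 0.23 without imatinib replicate 3 and 0.61 without PBS replicate 2.

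Several stress and repair lists had medians close to that of all genes, among them hypoxia (-0.0047), immediate early genes (0.0027), NRF2 (0.0027), NF-kappa-B feedback (0.02) and p53 (0.03). Leaving out PBS replicate 3 put them at 0.052 for hypoxia, 0.045 for immediate early genes, 0.0094 for NRF2, 0.035 for NF-kappa-B feedback and 0.051 for p53. In the list of endoplasmic reticulum stress 8 of 27 genes were higher and 0 lower without overlap, and in the glycolysis list 5 of 20 were higher and 3 lower. Over all genes these shares were 6.33% on the higher side and 6.67% on the lower. Serpinh1, the collagen chaperone, had 8.29, 8.23 and 8.65 in imatinib vessels, against 8.12, 7.61 and 7.70 in PBS vessels, a difference of 0.58. Thbd, thrombomodulin of the endothelial surface, had 9.09, 9.02 and 9.08 in imatinib vessels, against 8.89, 8.70 and 8.51 in PBS vessels. Complement C3 had 6.14, 6.83 and 6.90 in imatinib vessels, against 6.77, 7.35 and 7.65 in PBS vessels, with overlap, and Cd59a, which blocks the complement pore, differed by 0.36.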
